A study of Mus musculus with 5 samples.

Results

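The outflow tract (OFT) and the atrioventricular canal (AVC) are the 2 regions of the embryonic heart where endocardial cushions form. They were compared here in wild-type mouse embryos at embryonic day 10.5, with 1 Tag-seq library for the OFT and 1 for the AVC, out of the 5 libraries of the series. Both libraries come from C57BL/6 embryos, whose hearts were cut into regions by hand, and each pools tissue from at least 3 litters. The other libraries are wild-type atria, wild-type ventricles and the AVC of *Twist1* knockout embryos on the ICR strain, and their levels are given only as values beside the comparison. All 12541 genes with a listed tag in the OFT or the AVC were compared, out of 13486 genes with a listed tag in any library. The question is what separates the OFT from the AVC, gene by gene.

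Cushions are swellings of extracellular matrix that lie between the myocardium and the endocardium. Endocardial cells of each region lose their contacts, enter the matrix and become mesenchyme, which later gives rise to the valves and septa. The AVC sits between atria and ventricles, and its myocardium conducts slowly and secretes the signals that start the transition. The OFT lies at the arterial pole, where second heart field progenitors add myocardium and smooth muscle and where cardiac neural crest cells enter the cushions. Each dissected piece therefore holds myocardium, endocardium and cushion cells, and the pieces were not sorted into cell types.

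Tag-seq counts a short tag next to an NlaIII site of each polyadenylated transcript. The tags below are the most counted ones of genes that set the OFT and the AVC apart. The level of a gene sums all of its tag types, so a printed tag can be only part of what was measured. The printed tags of *Isl1* and *Tbx5* lie at NlaIII sites 3 and 5 from the 3' end. Capitals mark the NlaIII site. Coordinates are on GRCm38 with the GENCODE M21 annotation. The first 6 belong to genes called higher in the OFT.
Isl1: CATGggattttactagaataa, chr13:116299256-116299276, minus strand, 3' UTR in exon 6 of 6, with 226 tags in the OFT and 8 in the AVC.
Bmp4: CATGttgtacctggatgagta, chr14:46383920-46383940, minus strand, coding sequence in exon 4 of 4, with 375 tags in the OFT and 47 in the AVC.
Sema3c: CATGagaatttaattagatgt, chr5:17730199-17730219, plus strand, 3' UTR in exon 18 of 18, with 758 tags in the OFT and 215 in the AVC.
Tnc: CATGgtcattctccgagccag, chr4:63960096-63960116, minus strand, 3' UTR in exon 26 of 26, with 2665 tags in the OFT and 290 in the AVC.
Rgs5: CATGgctcacagtacttaagt, chr1:169695394-169695414, plus strand, 3' UTR in exon 5 of 5, with 688 tags in the OFT and 15 in the AVC.
Mybpc1: CATGtttactcaacctttggt, chr10:88525033-88525053, minus strand, coding sequence in exon 26 of 29, with 123 tags in the OFT and 0 listed in the AVC.

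The next 7 belong to genes called higher in the AVC.
Gal: CATGtccactgtgcacgtgtg, chr19:3410071-3410091, minus strand, 3' UTR in exon 6 of 6, with 232 tags in the AVC and 0 listed in the OFT.
Cav1: CATGtcctataaagatttcaa, chr6:17341275-17341295, plus strand, 3' UTR in exon 3 of 3, with 238 tags in the AVC and 0 listed in the OFT.
Cacna2d2: CATGatgtgtgcccagcctgg, chr9:107528892-107528912, plus strand, 3' UTR in exon 38 of 38, with 2687 tags in the AVC and 158 in the OFT.
Bmp2: CATGgaaggttgctgagcaaa, chr2:133562166-133562186, plus strand, 3' UTR in exon 3 of 3, with 1207 tags in the AVC and 143 in the OFT.
Tbx5: CATGttccccgattgtttctc, chr5:119883799-119883819, plus strand, 3' UTR in exon 9 of 9, with 225 tags in the AVC and 20 in the OFT.
Tbx3: CATGaaaggcaaaacaaaaca, chr5:119684552-119684572, plus strand, 3' UTR in exon 8 of 8, with 339 tags in the AVC and 57 in the OFT.
Nppa: CATGcccccgcaggccctgag, chr4:148001105-148001125, plus strand, coding sequence in exon 2 of 3, with 1878 tags in the AVC and 156 in the OFT.

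The AVC library held 6075421 tags and the OFT library 5267618, of which 70.7% and 72.2% matched 1 gene. Tags were summed per gene and are given as tags per 1000000 tags of the library (TPM), a scale on which libraries can be compared for 1 gene, but not genes with each other. A tag type is listed only above 5 tags, so the smallest listed level is 0.988 TPM in the AVC and 1.14 TPM in the OFT. Genes were compared by the exact test of edgeR with the dispersion fixed at 0.12, and a gene is called when its unadjusted exact p is under 0.05. There is 1 library for each region, so the spread between embryos was not measured, and every p compares these libraries and not the regions in general. Where a gene is not listed in a library, the fold is given as a bound that assumes 5 tags in place of every tag type it lacks. In a gene listed in both libraries, a tag type that 1 library lacks counts as 0. Such a fold can be too large. Intervals beside folds are 95% intervals from counting error and the fixed dispersion, and they do not cover missing tag types.

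Few genes separated the libraries by the test. Of the 12541 genes, 655 were called higher in the OFT (5.22% of genes tested) and 922 higher in the AVC (7.35%). Most calls rest on absence, as 509 of the 655 were not listed in the AVC and 701 of the 922 were not listed in the OFT, and a called gene can have as few as 7 tags. With 5 tags put in for each missing tag type, 154 genes remained called higher in the OFT (1.23%) and 250 higher in the AVC (1.99%), and counts of members that remained called refer to these. Of 1549 genes with at least 1000 tags in the OFT and AVC together, 25 were called, 14 higher in the OFT and 11 higher in the AVC, and the smallest of these differences was 2.74-fold. The log2 ratio of these 1549 genes had a median absolute value of 0.26 and an SD of 0.49. The balance of calls depends on the scaling. When the totals of all sequenced tags were used in place of the listed tags, each log2 ratio moved by 0.36 toward the OFT, and 945 genes were called higher in the OFT and 712 in the AVC. The plot of both levels shows the calls on either side of the diagonal.

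**Figure D1:**
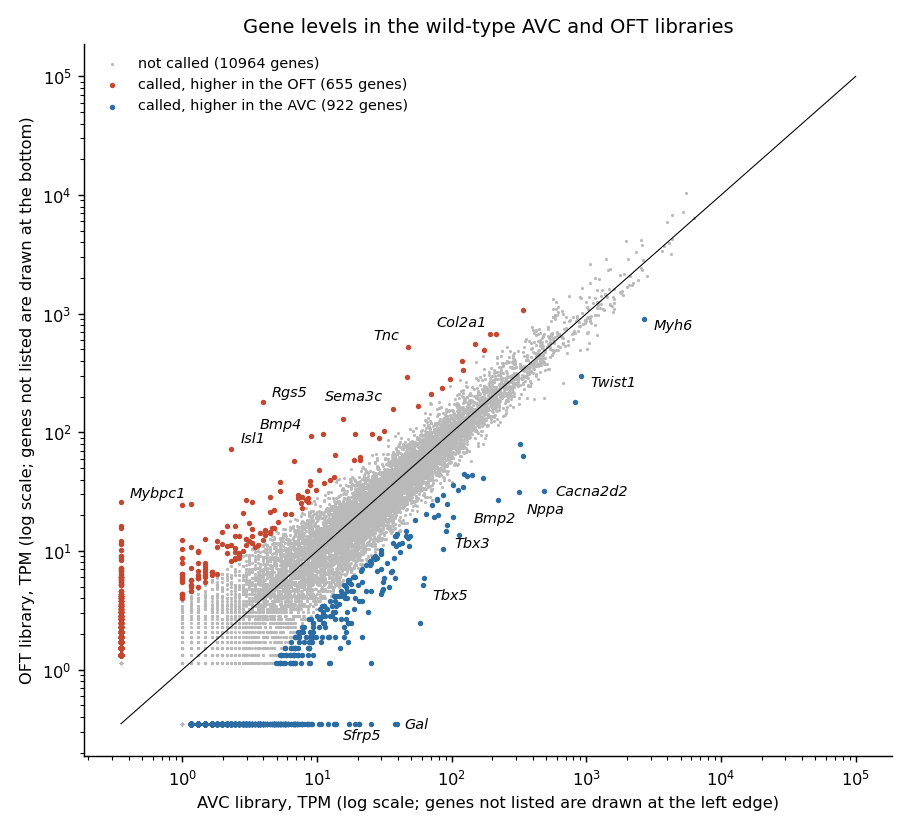
Level of each gene in the AVC library (x axis, TPM, log scale) and the OFT library (y axis, TPM, log scale), 1 point for each of 12541 genes. Genes not listed in a library are drawn at its edge; red points are the 655 genes called higher in the OFT, blue points the 922 called higher in the AVC, and the line marks equal levels. Most points lie along the line, and most called points lie on the edges.

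The calls among second heart field genes all lay on the OFT side. Of 24 genes of these progenitors and their derivatives 20 were found, 7 were called higher in the OFT and 0 in the AVC, and 5 of the 7 remained called with 5 tags for missing tag types. The 7 are 35% of those found, beside 5.22% of all genes. The list was chosen with earlier results of these data known, so its share is not independent of them. Here as in every comparison below, more cells of a type and more RNA per cell cannot be told apart. *Isl1*, the LIM homeobox factor that marks these progenitors, had 384 tags in the OFT (72.9 TPM) and 14 in the AVC (2.30 TPM), against 1.5 TPM in the atria, 0 listed in the ventricles and 3.08 TPM in the *Twist1* null AVC. It was high in the OFT library alone, 31.6-fold above the AVC (10.5 to 94.9, edgeR exact p = 3.71e-08). Of its 4 tag types 2 were not listed in the AVC and counted there as 0. The ligand *Bmp4* stood at 93.6 TPM in the OFT and 9.05 TPM in the AVC, a 10.3-fold difference (3.80 to 28.1, edgeR exact p = 3.05e-05). It was at 27.3 TPM in the *Twist1* null AVC and 2.37 TPM in the ventricles, and not listed in the atria. *Sema3c*, a secreted semaphorin that guides neural crest cells into the OFT, was 4.35-fold higher (158 against 36.4 TPM, edgeR exact p = 0.00504). *Fgf10*, a growth factor of the same progenitors, was at 6.45 TPM in the OFT and 0.988 TPM in the AVC (edgeR exact p = 0.00504). Its level in the *Twist1* null AVC was 5.93 TPM, near that of the OFT, and it was not listed in atria or ventricles. The homeobox gene *Tlx1* had 34 tags in the OFT and was not listed in the other libraries, at least 7.84-fold higher than in the AVC. *Fgf8* and *Tbx1*, the ligand and the T-box factor of the pharyngeal second heart field, were called on 10 and 9 tags in the OFT against 0 listed in the AVC, and they were not called with 5 tags in place of 0.

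Other second heart field genes were listed in both regions and not called. *Hand2*, a bHLH factor, was at 665 TPM in the OFT and 422 TPM in the AVC, and *Mef2c*, a myocyte enhancer factor, at 46.7 and 25.8 TPM. *Nkx2-5*, the core cardiac homeobox factor, was at 12.5 and 14.3 TPM. The median log2 ratio of the 20 genes was 0.88, with genes not listed put at their bound, and that of all genes tested was -0.08. With totals of all tags the median of the 20 was 1.24.

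The calls among genes of the canal myocardium and of conduction all lay on the AVC side. Of 31 genes 29 were found, 10 were called higher in the AVC with none in the OFT, and 9 of the 10 remained called with 5 tags for missing tag types. The 10 are 34.5% of those found, beside 7.35% of all genes. This list too was chosen with earlier results known, and its share is not independent of them. Their median log2 ratio was -0.55, and -0.19 with totals of all tags. *Cacna2d2*, an auxiliary subunit of voltage-gated calcium channels, had 2959 tags in the AVC (487 TPM) and 169 in the OFT (32.1 TPM). It was 15.2-fold higher in the AVC (5.74 to 40.2, edgeR exact p = 1.35e-06). Of its 14 tag types 12 were not listed in the OFT and counted there as 0. It stood at 142 TPM in the *Twist1* null AVC and at 1.5 and 1.89 TPM in atria and ventricles. *Nppa*, which encodes atrial natriuretic peptide, was at 316 TPM in the AVC and 31.3 TPM in the OFT, a 10.1-fold difference (3.82 to 26.7, edgeR exact p = 2.47e-05). It was at 18.2 TPM in the atria and 29.8 TPM in the ventricles. Its place in the list does not make it a marker of canal identity. *Bmp2*, the ligand with which canal myocardium starts cushion formation, was at 220 TPM in the AVC and 27.1 TPM in the OFT (8.12-fold, 3.06 to 21.5, edgeR exact p = 0.000115). *Gal*, which encodes the neuropeptide galanin, had 232 tags in the AVC and was not listed in the OFT, atria or ventricles, and its level in the *Twist1* null AVC was 32.3 TPM. Its difference from the OFT was at least 40.2-fold.

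Pacemaker genes of the list were among those called. *Shox2*, a homeobox factor of the sinus node, was at 8.39 TPM in the AVC and 28.1 TPM in the atria and was not listed in the OFT, at least 8.84-fold lower there. *Hcn4*, which encodes the pacemaker current channel, was at 16.6 TPM in the AVC and 3.99 TPM in the OFT (edgeR exact p = 0.0136), and the calcium release channel gene *Ryr3* at 15.1 and 2.66 TPM (edgeR exact p = 0.00329). Genes of general calcium handling were listed in both regions. *Atp2a2*, the calcium pump of the sarcoplasmic reticulum, stood at 1006 TPM in the AVC and 689 TPM in the OFT, and *Slc8a1*, the sodium-calcium exchanger, at 421 and 434 TPM, both without a call.

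T-box factors were called in both directions. Of 9 genes 7 were found, with 2 called higher in the AVC (28.6%) and 1 in the OFT (14.3%), beside 7.35% and 5.22% of all genes. *Tbx5*, which is expressed toward the inflow side of the heart, had 371 tags in the AVC (61.1 TPM) and 27 in the OFT (5.13 TPM). This was an 11.9-fold difference (4.23 to 33.6, edgeR exact p = 1.70e-05). *Tbx3*, a repressor that keeps canal and conduction myocardium from taking on a chamber fate, was at 90.0 and 14.6 TPM (6.16-fold, 2.29 to 16.6, edgeR exact p = 0.000776). *Tbx2*, its close relative, was at 20.1 TPM in the AVC and 8.73 TPM in the OFT and was not called (edgeR exact p = 0.127). *Tbx20*, which is active in myocardium and cushions alike, was at 338 and 297 TPM. *Tbx1*, described above, was the member called higher in the OFT. In SOX factors, *Sox17* and *Sox18*, both of endothelial cells, were called higher in the OFT (15.6 against 4.77 TPM and 7.40 against 1.48 TPM), and *Sox9*, the factor of cushion mesenchyme, was at 377 TPM in the OFT and 514 TPM in the AVC without a call. *Sox8* in the OFT and *Sox10* in the AVC completed the 4 calls among 13 SOX genes, on 8 and 12 tags that lost the call with 5 tags in place of 0. Calls in the OFT and the AVC made up 23.1% and 7.69% of the SOX genes, beside 5.22% and 7.35% of all genes. None of 8 GATA and FOG genes was called by the edgeR exact test, or at 5 tags for missing tag types. *Gata4*, *Gata6* and *Gata5* stood at 227, 102 and 78.2 TPM in the AVC and 123, 102 and 66.4 TPM in the OFT. *Gata3* and *Gata2* leaned to the OFT, at 99.1 and 39.7 TPM there and 40.2 and 14.2 TPM in the AVC (edgeR exact p = 0.0784 and 0.0509). Of the 7 listed in both libraries, 3 were nominally higher in the OFT and 4 in the AVC.

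**Figure D2:**
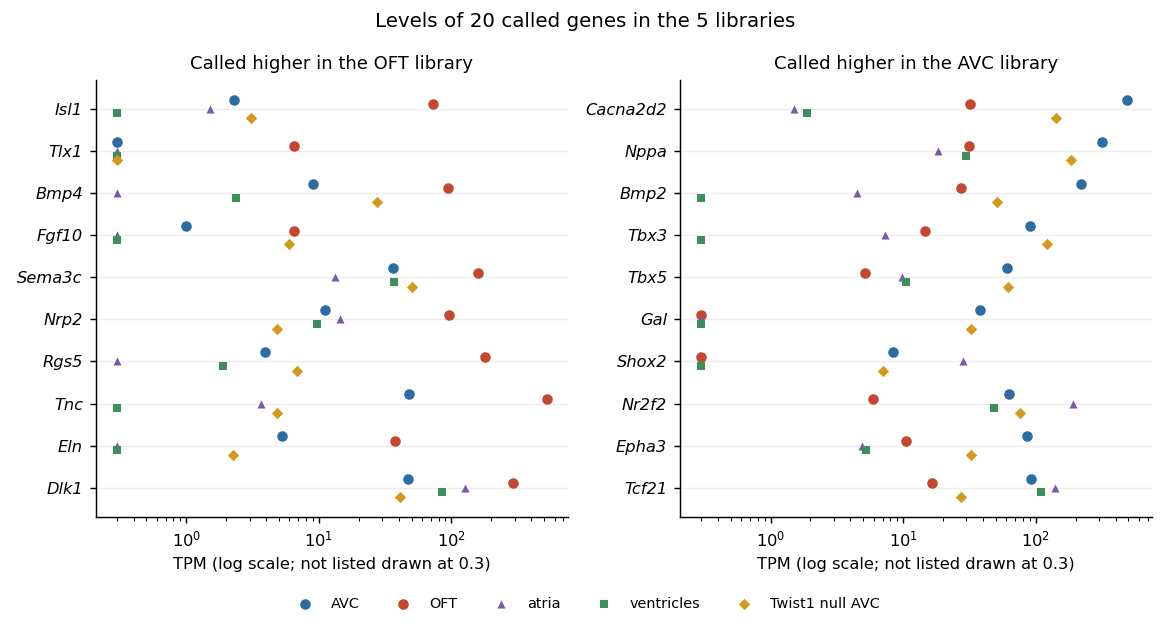
Levels of 20 called genes (TPM, log scale), 1 row for each gene and 1 point for each of the 5 libraries, with genes not listed in a library drawn at the left edge. In the left panel the OFT point lies to the right of the AVC point in each row, as for *Isl1* at 72.9 against 2.30 TPM, and in the right panel to its left, as for *Cacna2d2* at 32.1 against 487 TPM.

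*Bmp4* and *Bmp2*, related ligands, were called in opposite directions. In the BMP pathway 30 of 34 genes were found, and the 2 called higher in the OFT (6.67%) and 3 in the AVC (10%) are shares near those of all genes, 5.22% and 7.35%. *Bmp4* was 10.3-fold higher in the OFT and *Bmp2* 8.12-fold higher in the AVC, while *Bmp7* was at 96.1 and 80.8 TPM in the OFT and the AVC and was not called. *Msx1* and *Msx2*, homeobox targets of BMP signalling, were higher in the AVC (92.3 against 24.7 TPM, edgeR exact p = 0.0118, and 78.8 against 20.1 TPM, edgeR exact p = 0.00959). The target *Id2* was at 1086 TPM in the AVC and 960 TPM in the OFT, without a call. *Chrd*, a secreted BMP antagonist, was called on 10 tags in the OFT and lost the call with 5 tags in place of 0.

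The FGF pathway had 18 of 22 genes found. *Fgf10* and *Fgf8* were called higher in the OFT, and *Fgf9*, *Fgf12* and the receptor gene *Fgfr4* higher in the AVC, 11.1% and 16.7% of those found. The shares of all genes were 5.22% and 7.35%. *Fgf9*, a ligand of epicardium and endocardium, had 46 tags in the AVC and was not listed in the OFT, at least 7.98-fold lower there. *Fgf12* and *Fgfr4* were called on 11 and 13 tags. The calls of *Fgf8*, *Fgf12* and *Fgfr4* did not remain with 5 tags for missing tag types. None of 17 TGF-beta pathway genes found was called by the edgeR exact test or at 5 tags for missing tag types, and *Tgfb2*, the ligand of cushion transition, was at 172 TPM in the AVC and 132 TPM in the OFT. *Ltbp1*, *Tgfbi* and *Ltbp4*, genes of matrix proteins that bind the ligand or respond to it, were at 121, 117 and 57.3 TPM in the AVC and 142, 223 and 86.6 TPM in the OFT.

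Wnt pathway genes were called in both directions. Of 40 genes 34 were found, 7 were called higher in the AVC and 3 in the OFT. These are 20.6% and 8.82% of those found, beside 7.35% and 5.22% of all genes, and 4 and 1 remained called with 5 tags for missing tag types. *Axin2*, a feedback inhibitor and common readout of the canonical pathway, had 187 tags in the AVC (30.8 TPM) and 25 in the OFT (4.75 TPM), a 6.49-fold difference (2.28 to 18.5, edgeR exact p = 0.000996). *Sfrp5*, a secreted inhibitor, had 81 tags in the AVC and was not listed in the OFT (at least 14.0-fold). The ligand *Wnt9b* had 49 and was not listed in the OFT (at least 8.50-fold), and the receptor gene *Fzd10* had 23 (at least 3.99-fold). *Wnt2*, *Wnt9a* and *Fzd3* were called higher in the AVC only with 0 for missing tag types. In the OFT the secreted inhibitor *Dkk1* was at 7.97 TPM against 1.32 TPM in the AVC (edgeR exact p = 0.00494). *Frzb*, another inhibitor, was at 13.3 against 2.63 TPM and *Wnt2b* at 1.33 against 0 listed, both called only with 0 for missing tag types. *Wnt11*, the noncanonical ligand of the OFT, was at 163 TPM in the OFT and 83.0 TPM in the AVC without a call (edgeR exact p = 0.184).

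Genes of retinoic acid signalling were also called in both directions, 6 higher in the AVC and 2 in the OFT among 17 found (35.3% and 11.8%). The shares of all genes were 7.35% and 5.22%. *Nr2f2*, an orphan nuclear receptor of atrial and venous cells, had 380 tags in the AVC (62.5 TPM) and 31 in the OFT (5.88 TPM). The difference was 10.6-fold (3.80 to 29.7, edgeR exact p = 3.19e-05), and the atria held 190 TPM. Its paralogue *Nr2f1* was at 32.9 and 7.97 TPM (edgeR exact p = 0.00914). *Stra6*, the receptor for vitamin A uptake, had 27 tags in the AVC and was not listed in the OFT. *Rbp4*, *Dhrs3* and *Rdh10*, which carry or convert retinoids, were called higher in the AVC only with 0 for missing tag types. The binding protein genes *Crabp1* and *Crabp2* were higher in the OFT, at 38.9 against 8.89 TPM and 9.87 against 1.32 TPM (edgeR exact p = 0.00631 and 0.00152). The receptor gene *Rara* was at 15.2 TPM in the OFT and 21.6 TPM in the AVC.

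Neural crest genes were called in both directions. Of 30 genes 19 were found, 5 were called higher in the OFT and 3 in the AVC. This is 26.3% and 15.8% of those found, beside 5.22% and 7.35% of all genes. With 5 tags for missing tag types 3 and 2 remained called. *Nrp2*, a semaphorin coreceptor, was at 96.6 TPM in the OFT and 11.03 TPM in the AVC (8.76-fold, 3.24 to 23.7, edgeR exact p = 8.48e-05), and *Crabp1* and *Crabp2* belong to this list too. *Tfap2a* and *Dlx2*, transcription factors of early crest, had 22 and 16 tags in the OFT and were not listed in the other libraries, and both calls were lost with 5 tags for missing tag types. The members called higher in the AVC were *Msx1*, *Msx2* and *Sox10*. The crest factors *Foxd3*, *Pax3* and *Tfap2b* were not listed in either region. *Ednra*, the endothelin receptor gene of crest mesenchyme, was at 86.2 TPM in the OFT and 75.6 TPM in the AVC.

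Guidance genes called higher in the AVC were mostly ephrin receptors. Of 33 semaphorin, plexin, Slit, Robo and ephrin genes found, 4 were called higher in the AVC (12.1%) and 2 in the OFT (6.06%), not far from the shares of all genes. *Epha3*, an ephrin receptor of AVC cushion cells, had 525 tags in the AVC (86.4 TPM) and 55 in the OFT (10.4 TPM), an 8.28-fold difference (3.05 to 22.5, edgeR exact p = 0.000130). *Epha4* was at 30.5 and 4.56 TPM (edgeR exact p = 0.000875) and *Ephb3* at 121 and 34.9 TPM (edgeR exact p = 0.0170), the latter not called with totals of all tags. *Robo4* was called on 11 tags in the AVC and lost the call with 5 tags in place of 0. The members called higher in the OFT were *Sema3c* and *Nrp2*, a ligand and a receptor of the semaphorin system. In the Notch pathway 21 of 23 genes were found. Of these 9.52% were called higher in the OFT and 4.76% in the AVC, beside 5.22% and 7.35% of all genes. *Dlk1*, a noncanonical ligand, was 6.23-fold higher in the OFT (292 against 46.9 TPM, edgeR exact p = 0.000579). *Mfng*, which glycosylates Notch receptors, was at 6.45 and 1.81 TPM (edgeR exact p = 0.0463), and its call was lost when the AVC library was thinned to the depth of the OFT library. *Notch3* was higher in the AVC (8.56 against 1.52 TPM, edgeR exact p = 0.00793). *Notch1*, the receptor of endocardium, was at 33.6 TPM in the OFT and 31.8 TPM in the AVC.

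Among 34 matricellular and elastic fibre genes found, 4 were called higher in the OFT (11.8%) and 1 in the AVC (2.94%), all of which remained called with 5 tags for missing tag types. Of all genes 5.22% and 7.35% were called in these directions. *Tnc*, which encodes the adhesion-modulating glycoprotein tenascin C, had 2755 tags in the OFT (523 TPM) and 290 in the AVC (47.7 TPM), and 3.64 TPM in the atria, 0 listed in the ventricles and 4.85 TPM in the *Twist1* null AVC. The OFT library was 10.96-fold above the AVC (4.16 to 28.8, edgeR exact p = 1.33e-05). *Eln*, which encodes elastin of arterial walls, was at 37.8 TPM in the OFT and 5.27 TPM in the AVC (7.17-fold, edgeR exact p = 0.000511), and *Fbln5*, needed for elastic fibre assembly, at 12.7 and 2.96 TPM (edgeR exact p = 0.0141). Other elastic fibre genes of the list were not called, among them the fibrillin genes *Fbn1* (108 TPM in the OFT and 85.9 TPM in the AVC) and *Fbn2* (284 and 438 TPM) and the fibulin gene *Fbln1* (27.1 and 71.4 TPM). *Lamb3*, a laminin chain gene outside the list and among the 20 genes of smallest p, had 64 tags in the OFT and was not listed in the AVC (at least 14.8-fold). *Mgp*, an inhibitor of calcification, was higher in the AVC (12.3 against 1.90 TPM, edgeR exact p = 0.00268). *Postn*, which encodes the matricellular protein periostin, was at 141 TPM in the OFT and 145 TPM in the AVC without a call.

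Collagen genes were called in both directions, 4 of 27 found higher in the OFT (14.8%) and 2 higher in the AVC (7.41%). Of all genes 5.22% and 7.35% were called in these directions, so the AVC share of collagens is near that of all genes. *Col2a1*, the fibrillar collagen gene of cartilage and cushions, was 3.17-fold higher in the OFT (673 against 212 TPM, edgeR exact p = 0.0240). *Col12a1* was at 12.5 TPM in the OFT and 1.48 TPM in the AVC (edgeR exact p = 0.000655). *Col8a1* and *Col15a1* had 48 and 21 tags in the OFT and were not listed in the AVC. *Col9a3* was higher in the AVC (131 against 42.5 TPM, edgeR exact p = 0.0296), a call that was lost with totals of all tags, and *Col11a2* was called on 14 tags in the AVC only with 0 for missing tag types. The main interstitial collagen genes *Col1a1* and *Col3a1* were at 212 and 2336 TPM in the OFT and 162 and 1439 TPM in the AVC, without a call. Of 22 proteoglycan and hyaluronan genes, *Fmod*, which encodes fibromodulin, was called higher in the AVC (34 tags against 0 listed), and *Lum*, which encodes lumican, higher in the OFT (4.37 against 0.988 TPM) only with 0 for missing tag types. That is 4.55% in each direction, below the shares of all genes (5.22% in the OFT and 7.35% in the AVC). *Vcan* and *Has2*, which make the versican and hyaluronan of cushion matrix, were at 405 and 241 TPM in the OFT and 413 and 215 TPM in the AVC. Among 25 matrix proteases found, 8% were called higher in the OFT and 12% in the AVC, shares near those of all genes (5.22% and 7.35%). *Adam12* and *Adamts4* were called higher in the OFT, at 39.3 against 12.5 TPM and 5.88 TPM against 0 listed. *Adamts19*, *Adamts20* and *Adamts12* were called higher in the AVC, led by *Adamts19* at 31.1 against 5.51 TPM (edgeR exact p = 0.00191), and the call of *Adamts12* did not remain with 5 tags for missing tag types.

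Of 25 smooth muscle and pericyte genes found, 2 were called higher in the OFT (8%) and 3 in the AVC (12%), shares near those of all genes (5.22% and 7.35%). *Rgs5*, a regulator of G protein signalling that marks pericytes and arterial mural cells, had 940 tags in the OFT (178 TPM) and 24 in the AVC (3.95 TPM). The difference was 45.2-fold (15.9 to 128, edgeR exact p = 9.05e-10). Of its 6 tag types 4 were not listed in the AVC and counted there as 0, so this fold can be too large. The atria had 0 listed, the ventricles 1.89 TPM and the *Twist1* null AVC 6.86 TPM. *Acta2*, the smooth muscle actin gene that embryonic myocardium also uses, was at 399 TPM in the OFT and 120 TPM in the AVC (3.33-fold, edgeR exact p = 0.0192). It was at 102 TPM in the atria, 184 TPM in the ventricles and 716 TPM in the *Twist1* null AVC, which is above the OFT. *Acta2* has 8 listed tag types, and with tags of the 3'-most NlaIII site alone, which holds 6 tags in the AVC and 0 listed in the OFT, its direction turned. *Mylk*, *Notch3* and *Itga8* were higher in the AVC, at 11.5 against 2.28, 8.56 against 1.52 and 9.88 against 1.90 TPM. *Myh11*, which defines mature smooth muscle, had 6 tags in the AVC and 0 listed in the OFT.

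**Figure D3:**
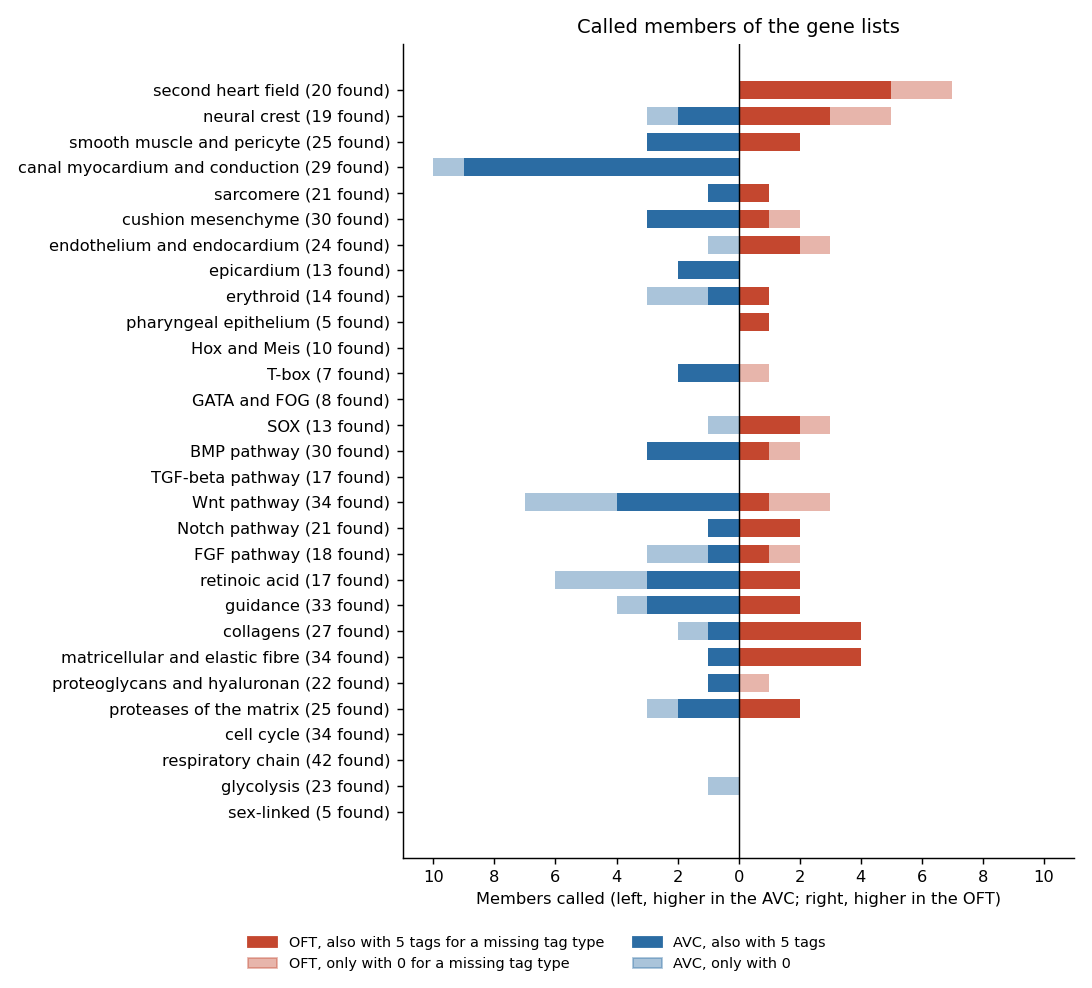
Number of members called in each of 29 gene lists, to the left for genes higher in the AVC and to the right for genes higher in the OFT, with the number of members found beside each name. Dark bars are members that remained called with 5 tags for each missing tag type and pale bars members called only with 0. The second heart field list lies on the OFT side, with 7 members, and the canal myocardium and conduction list on the AVC side, with 10.

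Of 30 markers of the cushion mesenchyme itself 29 were listed in both regions, the exception being *Sox8*. The 2 called higher in the OFT (6.67%) and 3 in the AVC (10%) are shares near those of all genes. *Twist1*, the bHLH factor of cushion mesenchyme that the series was designed around, had 5577 tags in the AVC (918 TPM) and 1574 in the OFT (299 TPM), and 63.4 TPM in the atria, 55.9 TPM in the ventricles and 4.55 TPM in the *Twist1* null AVC. It was 3.07-fold higher in the AVC than in the OFT (1.17 to 8.04, edgeR exact p = 0.0279), and the call was lost with totals of all tags. *Msx1* and *Msx2* were the other members higher in the AVC. *Meox1*, a homeobox factor of mesoderm, was 9.16-fold higher in the OFT (27.1 against 2.96 TPM, edgeR exact p = 0.000194), and *Sox8* was called there on 8 tags. The factors *Snai1* and *Zeb1* of the transition to mesenchyme were at 43.5 and 192 TPM in the AVC and 18.4 and 200 TPM in the OFT, and *Vim*, which encodes vimentin, was at 1470 and 1607 TPM.

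Of 21 sarcomere genes found, 1 was called in each direction (4.76%), beside 5.22% of all genes higher in the OFT and 7.35% higher in the AVC. *Myh6*, the alpha myosin heavy chain of atrial and inflow myocardium, was 2.98-fold higher in the AVC (2696 against 904 TPM, edgeR exact p = 0.0318). This call was lost with totals of all tags. *Myh6* was at 196 TPM in the atria and 142 TPM in the ventricles, below both the AVC and the OFT. *Tnnt1*, a slow troponin T gene, was 2.98-fold higher in the OFT (166 against 55.8 TPM, edgeR exact p = 0.0339). *Myh7*, the beta heavy chain, was at 2625 TPM in the OFT and 1057 TPM in the AVC without a call (edgeR exact p = 0.0720). *Tnnt2* and *Actc1*, which every cardiomyocyte uses, were at 5906 and 6370 TPM in the OFT and 3978 and 6282 TPM in the AVC. *Mybpc1*, a myosin-binding protein gene of slow skeletal muscle, had the smallest p of all genes higher in the OFT. It had 137 tags there and was not listed in any other library, at least 15.8-fold lower in the AVC.

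Few markers of epicardium and of pharyngeal epithelium were called. Of 13 epicardial genes found, 2 were called higher in the AVC (15.4%, beside 7.35% of all genes) with none in the OFT. The median log2 ratio of the 13 was -1.09, or -0.73 with totals of all tags. *Tcf21*, a bHLH factor of epicardium and its mesenchyme, was at 92.2 TPM in the AVC and 16.5 TPM in the OFT (5.58-fold, 2.08 to 15.0, edgeR exact p = 0.00139). The integrin gene *Itga4* was at 142 and 43.5 TPM (edgeR exact p = 0.0218), and that call was lost with totals of all tags. In the atria and ventricles *Itga4* was at 4.93 and 6.16 TPM and *Gata5*, also of the list, at 5.36 and 3.79 TPM. *Tcf21* was at 139 and 111 TPM there. *Wt1*, which defines the epicardium, was at 15.6 TPM in the AVC and 8.54 TPM in the OFT, and *Tbx18* at 101 and 38.4 TPM, both without a call. The summed level of the list was 529 TPM in the AVC and 246 TPM in the OFT, with *Itga4* and *Gata5* (78.2 and 66.4 TPM) included. Of 26 genes of pharyngeal epithelium 5 were found. *Krt8*, a simple epithelial keratin gene, was the member called higher in the OFT (212 against 70.1 TPM, edgeR exact p = 0.0313), 20% of those found beside 5.22% of all genes. The list summed to 277 TPM in the OFT and 137 TPM in the AVC. Without *Krt8* the sums were 65.5 and 66.8 TPM, and the epithelial protease inhibitor gene *Spint2* was at 12.7 TPM in the OFT and 31.6 TPM in the AVC. The part of these cells in the differences above was not tested.

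Endothelial and blood markers were called in both directions. Of 24 endothelial and endocardial genes found 3 were called higher in the OFT (12.5%) and 1 in the AVC (4.17%), beside 5.22% and 7.35% of all genes. The list summed to 960 TPM in the OFT and 887 TPM in the AVC. *Sox17* and *Sox18* remained called with 5 tags for missing tag types and *Emcn* and *Robo4* did not, while *Cdh5*, which encodes the junction protein VE-cadherin, was at 109 and 90.9 TPM. Erythroid genes summed to 3102 TPM in the OFT and 2459 TPM in the AVC. Of 14 found, *Slc4a1* was called higher in the OFT (7.14%) and *Klf1*, *Nfe2* and *Epor* higher in the AVC (21.4%), beside 5.22% and 7.35% of all genes. Each call rests on 39 tags or fewer in the higher library, and the calls of *Nfe2* and *Epor* were lost with 5 tags for missing tag types. The embryonic globin genes *Hbb-y*, *Hba-x* and *Hbb-bh1* were at 1096, 1258 and 706 TPM in the OFT and 598, 1204 and 605 TPM in the AVC, without a call. Erythroid genes summed to 215990 TPM in the atria, 46873 TPM in the ventricles and 27448 TPM in the *Twist1* null AVC. The levels of other genes in those libraries are shares of totals that include these tags. None of the 5 sex-linked genes was called by the edgeR exact test. *Xist* was at 73.5 TPM in the OFT and 93.3 TPM in the AVC and the Y-linked *Ddx3y* at 72.9 and 70.8 TPM.

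Cell cycle, respiratory chain and glycolysis genes gave 1 call. None of 34 cell cycle genes and none of 42 respiratory chain genes found was called by the edgeR exact test or at 5 tags for missing tag types, and 1 of 23 glycolysis genes was, *Eno1*, on 13 tags in the AVC, only with 0 for missing tag types and not when tags were matched to all transcripts. The cyclin gene *Ccnd2* was at 1407 TPM in the OFT and 743 TPM in the AVC, and *Top2a*, a topoisomerase of dividing cells, at 619 and 526 TPM. *Atp5a1*, a subunit of ATP synthase, was at 1573 and 1295 TPM, and *Ldha*, which makes lactate, at 2084 and 2096 TPM. None of 10 Hox, Meis and Pbx genes found was called by the edgeR exact test or at 5 tags for missing tag types. *Pbx2*, a cofactor of Hox proteins, was at 85.6 TPM in the OFT and 90.5 TPM in the AVC.

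The genes of smallest p also held members of none of these lists. In the OFT the 20 genes of smallest p had a median of 10.8 TPM, 16 of them were not listed in the AVC, and 18 remained called with 5 tags for missing tag types. They included *Masp1*, a lectin pathway protease gene (16.1 TPM), *Krt79*, a keratin gene (11.8 TPM), *Tdgf1*, which encodes the Nodal coreceptor Cripto (8.73 TPM), and *Rgs16*, a relative of *Rgs5* (7.21 TPM), all not listed in the AVC. *Gabra4*, a GABA receptor subunit gene, and *Psd*, an exchange factor gene for ARF6, were at 24.3 and 25.1 TPM in the OFT and 0.988 and 1.15 TPM in the AVC. The calls of *Nfkbiz* and *Bard1* did not remain. The *Twist1* null AVC listed 15 of the 20, the atria 6 and the ventricles 3.

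In the AVC the 20 genes of smallest p had a median of 13.7 TPM, 18 of them were not listed in the OFT, and all 20 remained called with 5 tags for missing tag types. *Cav1*, which encodes the caveolar coat protein caveolin 1, had 238 tags in the AVC and was not listed in the OFT, at least 41.3-fold lower there, and was at 36.9 TPM in the atria and 131 TPM in the *Twist1* null AVC. *Vsnl1*, a neuronal calcium sensor gene, was at 25.2 TPM in the AVC and 78.2 TPM in the atria, and *Kcnj3*, a subunit gene of the acetylcholine-activated potassium channel of atrial cells, at 20.6 and 32.8 TPM, both not listed in the OFT. *Tmem163*, a zinc transporter gene, was at 58.3 TPM in the AVC and 2.47 TPM in the OFT (23.6-fold, 7.79 to 71.5, edgeR exact p = 3.06e-07). *Adm*, which encodes the vasoactive peptide adrenomedullin, had 51 tags in the AVC and was not listed in the OFT. The *Twist1* null AVC listed all 20, the atria 16 and the ventricles 12.

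Several tags of 1 gene measure it again within the same libraries. There were 1670 genes with at least 2 tag types of 100 or more tags in the OFT and AVC together, and in 900 all of these tag types lay on the same side. The median range of the log2 ratio within a gene was 0.51. Of the 17 called genes among them, 9 higher in the OFT and 8 higher in the AVC, all 17 had every such tag type on the side of the call. The calls were made on the sum of these same tags. Agreement in side was thus largely fixed in advance and lends the calls no support. The tag types of *Myh6* had log2 ratios of -1.56, -1.56 and -1.83, those of *Twist1* -1.64 and -1.35, and those of *Rgs5* 5.73 and 4.17. Tags of a gene share its RNA and library, so this shows how far single tags vary and not how embryos do.

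**Figure D4:**
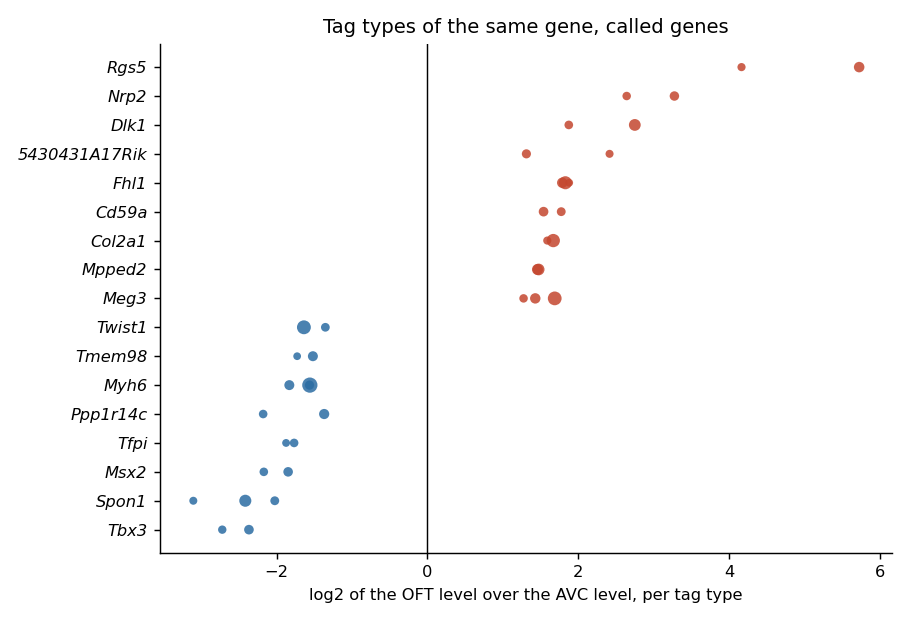
Log2 ratio of the OFT level to the AVC level (x axis) for each tag type with at least 100 tags, for the 17 called genes that have 2 or more, 1 row for each gene. Each point is a tag type, larger with more tags; red genes were called higher in the OFT and blue genes higher in the AVC, and no row crosses the line at 0.

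The number of calls depended on the settings. The plot of calls by setting gives both directions under the reported setting and 17 others. Calls in the OFT and the AVC fell to 156 and 236 with Benjamini-Hochberg adjustment of the edgeR exact p, and to 309 and 378 at a dispersion of 0.4.

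**Figure D5:**
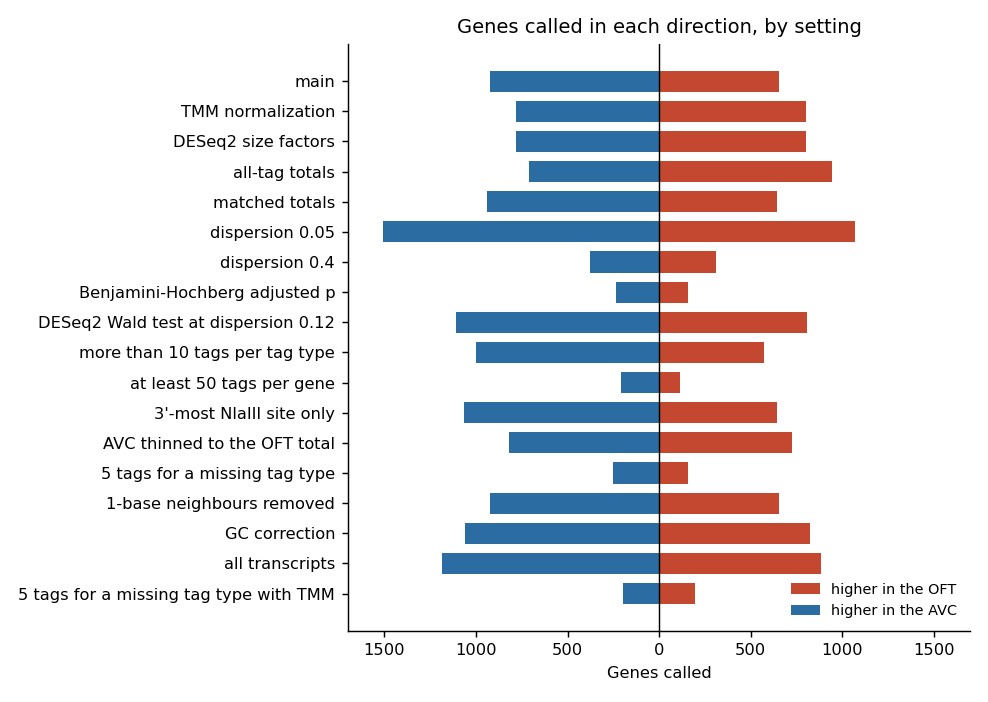
Genes called higher in the AVC (to the left) and in the OFT (to the right), 1 row for the reported setting (named main) and 1 for each of 17 others. The reported counts are 922 and 655, and the counts at a dispersion of 0.05 are 1506 and 1067.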

How the data were processed

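Gene expression was measured by Tag-seq, in which cDNA is cut with NlaIII and a tag beside the site is sequenced. The deposited values are counts of tags per tag type, made by the authors from reads trimmed to 21 bases after the Chastity filter, with only tag types above 5 tags kept. The files hold the 17 bases after the site. Tags were matched in sense to 33363 GENCODE M21 transcripts linked to RefSeq, with 20 adenines added at the end, in Python 3.11.15 (pandas 2.3.3, scipy 1.17.1 and numpy 2.4.6). Tags of 1 gene were summed, and tags that match several genes, antisense tags and unmatched tags stay in the library totals only. No genome sequence was searched, so a tag of 1 gene may also occur between genes.

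Testing with R 4.3.3 and edgeR 4.0.16 (its two-sided exact test) followed the study's methods, with a dispersion of 0.12 and an unadjusted p under 0.05. DESeq2 1.42.0 gave alternatives and matplotlib the figures. On simulated data the test recovered 69.0% of 200 genes changed 4-fold among 12541 and called 4.14% of unchanged genes. The simulated counts had the dispersion that the test assumes and no limit of 5 tags. They therefore do not measure the rate of false calls in these libraries. Named genes are the 20 of smallest p in each direction (ties in order of symbol), the called members of 29 lists, the most abundant members of lists without calls, and genes that define a list; members without a call named beside called ones were partly chosen after their values were seen. The comparison and the lists were chosen with earlier results of these data known. Some members counted in the lists are not reported here by name. Results were recomputed under 16 planned settings and 1 chosen after seeing the data, which combined 5 tags for missing tag types with TMM. Intervals cover counting error and the fixed dispersion, not the spread between embryos or missing tag types.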

Additional observations from a re-analysis of the deposited data

Results flagged for a closer look

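Tags without a match to any transcript were not used in the comparison, and they differed between the libraries. Of 1168 unmatched tag types with at least 100 tags in the AVC library, 680 were not listed in the OFT library, and these held 173431 tags, or 2.855% of the AVC library, with up to 5246 tags for 1 tag type. In the other direction 72 of 515 unmatched tag types with at least 100 tags in the OFT library were not listed in the AVC library, and they held 11589 tags, or 0.22% of the OFT library. Among tag types matched to 1 gene, 6 of the 6738 of the AVC library were absent in this way, and 1 of the 5795 of the OFT library. The atria listed 170 of the 680, the ventricles 158 and the *Twist1* null AVC 148. Their source was not tested. With library totals of tags given to 1 gene alone, which also leaves out tags of several genes and antisense tags, the calls were 643 higher in the OFT and 938 higher in the AVC.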

How the results depend on the processing

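Of 123 named genes, 2 changed direction under 1 of the 17 settings, tags of the 3'-most NlaIII site alone (log2 ratio -5.52 for *Acta2* and -0.016 for *Frzb*); the others kept theirs wherever they had a value. All 123 stayed called at a dispersion of 0.05, with the DESeq2 Wald test, with GC correction and without 1-base neighbours of abundant tags. Calls were lost for 47 at a dispersion of 0.4, 49 with Benjamini-Hochberg adjustment, 28 with 5 tags for a missing tag type and 7 with totals of all tags. Counts called higher in the OFT and the AVC were 1067 and 1506 at a dispersion of 0.05, 309 and 378 at 0.4, 156 and 236 with adjustment, 114 and 209 with at least 50 tags per gene (fewer genes tested), 155 and 250 with 5 tags for a missing tag type, and 195 and 195 with TMM added to that.

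The share of calls higher in the OFT was 41.5%. It was 50.57% with TMM or DESeq2 size factors, 57.03% with totals of all tags, 44.98% at a dispersion of 0.4, 36.45% with more than 10 tags per tag type, 35.29% with at least 50 tags per gene, 37.62% with the 3'-most site, 46.93% with the AVC thinned to the OFT total, 38.27% with 5 tags for a missing tag type and 50% with TMM added. The cause of these shifts was not tested beyond the scaling itself. Second heart field genes called higher in the OFT numbered 4 at a dispersion of 0.4, and 3 with adjustment and with at least 50 tags per gene, and canal genes called higher in the AVC 6 at a dispersion of 0.4. No paired analysis was possible because each region has 1 library.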

Other observations

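Over the 8492 genes listed in all 5 libraries, Spearman's rho across genes was 0.946 between the AVC and OFT libraries, 0.905 between atria and ventricles, and 0.786 between the wild-type AVC and the *Twist1* null AVC. It was between 0.640 and 0.647 for the AVC or the OFT against the atria or the ventricles. Genes are not independent replicates, and these values describe the libraries. A tag of adenines alone made up 1.75% of the OFT library and 0.734% of the AVC library.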
